A study of Rattus norvegicus with 16 samples.

Results

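Marker genes of microglia and macrophages were followed in rat hippocampus 24 h after traumatic brain injury (TBI). The genes were chosen by name, as every array probe whose gene name was Cx3cr1, P2ry12, Csf1r, Aif1, Tyrobp, Trem2, Cd68, Cd14, Msr1 or Cd163, and all 10 genes were found on the array, with 12 of its 30367 probes. They are 10 of the 20055 gene names with a tested probe. Csf1r and Aif1 had a second probe each, and the brighter probe stands for the gene unless the other is named. All 12 probes were among the 22821 that were tested, a probe being tested when the scanner software had marked it well above background throughout at least 1 group.

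Microglia are the resident macrophages of the brain. In the healthy brain they keep surveying processes in motion and express a homeostatic set of genes, among them the fractalkine receptor Cx3cr1, the purinergic receptor P2ry12 and the growth factor receptor Csf1r. After injury they withdraw their processes, become phagocytic and express lysosomal, pattern recognition and scavenger receptor genes such as Cd68, Cd14 and Msr1, which macrophages and monocytes entering from the blood express as well.

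The study used Sprague-Dawley rats, adult males by its methods, and each of the 16 single-colour Agilent arrays held RNA of whole hippocampus. Naïve rats (n = 3 arrays) were neither anesthetized nor handled, Sham rats (n = 2) received a sham injury, and TBI rats (n = 3) received a severe fluid percussion injury. The other groups received the same injury and a drug, which was PMI (PMI-006 in the series' design text) in TBI+PMI (n = 3), JM6 in TBI+JM6 (n = 3) and E33, given there as estrogen, in TBI+E33 (n = 2). JM6 and PMI were given by oral gavage and E33 subcutaneously according to the labels, and brains were taken at 24 h. Arrays of Sham and TBI+E33 beyond these were not analysed here.

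The arrays had been scanned in 2 sessions of 8 arrays, one holding the Naïve, Sham and TBI groups and the other the drug groups. Between 16274 and 18239 probes were well above background in the first-named session and between 20256 and 24979 in the other, so that a drug group and TBI cannot be told apart from their sessions. Each session used 2 slides of 4 arrays. Naïve 1, Naïve 2 and both Sham arrays shared a slide, and Naïve 3 shared a slide with the 3 TBI arrays, so that TBI and Sham never met on a slide. Signals were divided by the 75th percentile of each array's probes well above background and are given as log2 values of that ratio, so that 0 is the 75th percentile. A gene was called changed where the Benjamini-Hochberg adjusted p of a limma fit over all 16 arrays was under 0.05. Levels of different genes are not compared, since probes differ in brightness. Except for Msr1 and Cd163, the brighter probe of each gene was well above background on all 16 arrays.

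Some probe sequences and some promoter windows of these genes are shown first. The grouping of the genes by role was made by gene name and did not use them. Csf1r was read by a pair of probes of 60 bases that gave differences of unlike size, and both are printed for that reason. The brighter probe lies in chr18:57105231-57105932 of the rn4 build, plus strand, where its 60 bases are spread over a longer genomic span and so cross a splice junction. The other lies at chr18:57093036-57093095 of the same build and strand. The remaining genes were read on rn4 at chr8:125033728-125033787 (Cx3cr1, minus strand), chr2:148611053-148611112 (P2ry12, minus), chr20:3716146-3716205 and chr20:3716264-3716323 (Aif1, plus), chr1:85369110-85369169 (Tyrobp, plus), chr9:8059065-8059124 (Trem2, minus), chr10:56481726-56481785 (Cd68, minus), chr18:29374990-29375049 (Cd14, minus), chr16:56293586-56293645 (Msr1, plus) and chr4:160423704-160423763 (Cd163, plus). Exon annotation of that build was not used here.
Csf1r A_44_P257582: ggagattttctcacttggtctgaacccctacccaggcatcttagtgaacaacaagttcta
Csf1r A_64_P351634: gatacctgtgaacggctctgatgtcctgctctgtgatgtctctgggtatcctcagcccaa

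The RefSeq table of promoters (build GRCr8) held 6 of the 10 genes, and the 250 bases before the start of transcription were searched on both strands for GAGGAA, the core bound by the myeloid factor PU.1 and other ETS factors, and for TGANTCA, the AP-1 site. GAGGAA was found in 4 of the 6, which were Cd14, Cd68, Csf1r and Trem2, against 23.3% of all 33469 promoters searched over the same window. TGANTCA was found in Cd68 alone among the 6, against 6.34% of all promoters. Cx3cr1 and Cd163 held neither string. A match is a description of the letters and no evidence of binding. The windows of Cd68 and Cd14, both called higher after TBI, and of Csf1r, not called, are printed with every match in capitals. They lie at chr10:54882442-54882691 (minus strand), chr18:28611159-28611408 (minus strand) and chr18:56834129-56834378 (plus strand), and the matches of the strings did not overlap each other.
Cd68: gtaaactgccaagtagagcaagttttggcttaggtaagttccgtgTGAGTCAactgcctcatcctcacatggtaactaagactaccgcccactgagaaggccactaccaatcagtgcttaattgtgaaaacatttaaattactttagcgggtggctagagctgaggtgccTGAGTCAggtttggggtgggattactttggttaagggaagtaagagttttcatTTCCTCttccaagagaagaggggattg
Cd14: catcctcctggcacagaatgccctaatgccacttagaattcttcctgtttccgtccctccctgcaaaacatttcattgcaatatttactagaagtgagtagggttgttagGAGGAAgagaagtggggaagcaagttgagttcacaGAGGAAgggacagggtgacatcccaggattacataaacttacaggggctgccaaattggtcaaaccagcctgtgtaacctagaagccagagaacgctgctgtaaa
Csf1r: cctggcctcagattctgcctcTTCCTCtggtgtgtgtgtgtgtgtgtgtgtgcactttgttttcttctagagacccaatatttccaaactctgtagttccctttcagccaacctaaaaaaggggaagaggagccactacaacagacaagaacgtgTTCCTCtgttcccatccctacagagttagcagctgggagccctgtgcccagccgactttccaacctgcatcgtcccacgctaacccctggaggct

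Of the 4 activated markers, Msr1, Cd14 and Cd68 were higher in injured hippocampus than in both control groups and Cd163 was not called. Of the 3 homeostatic markers none was called higher, and P2ry12 was called lower against Sham but not against Naïve. Against Sham, 5 of the 10 genes were called, when 9.38% of all tested probes were called. Msr1, Cd14, Cd68 and Tyrobp were higher (2.92% of all probes were called higher) and P2ry12 was lower (6.46% were called lower). Against Naïve, Cd14, Msr1 and Cd68 were higher and no gene was lower, so that 3 of 10 were called when 4.71% of all probes were. Both comparisons use the same TBI arrays. In a homogenate of whole hippocampus, a change in the number of cells of a type and a change in the RNA per cell cannot be told apart.

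**Figure D1:**
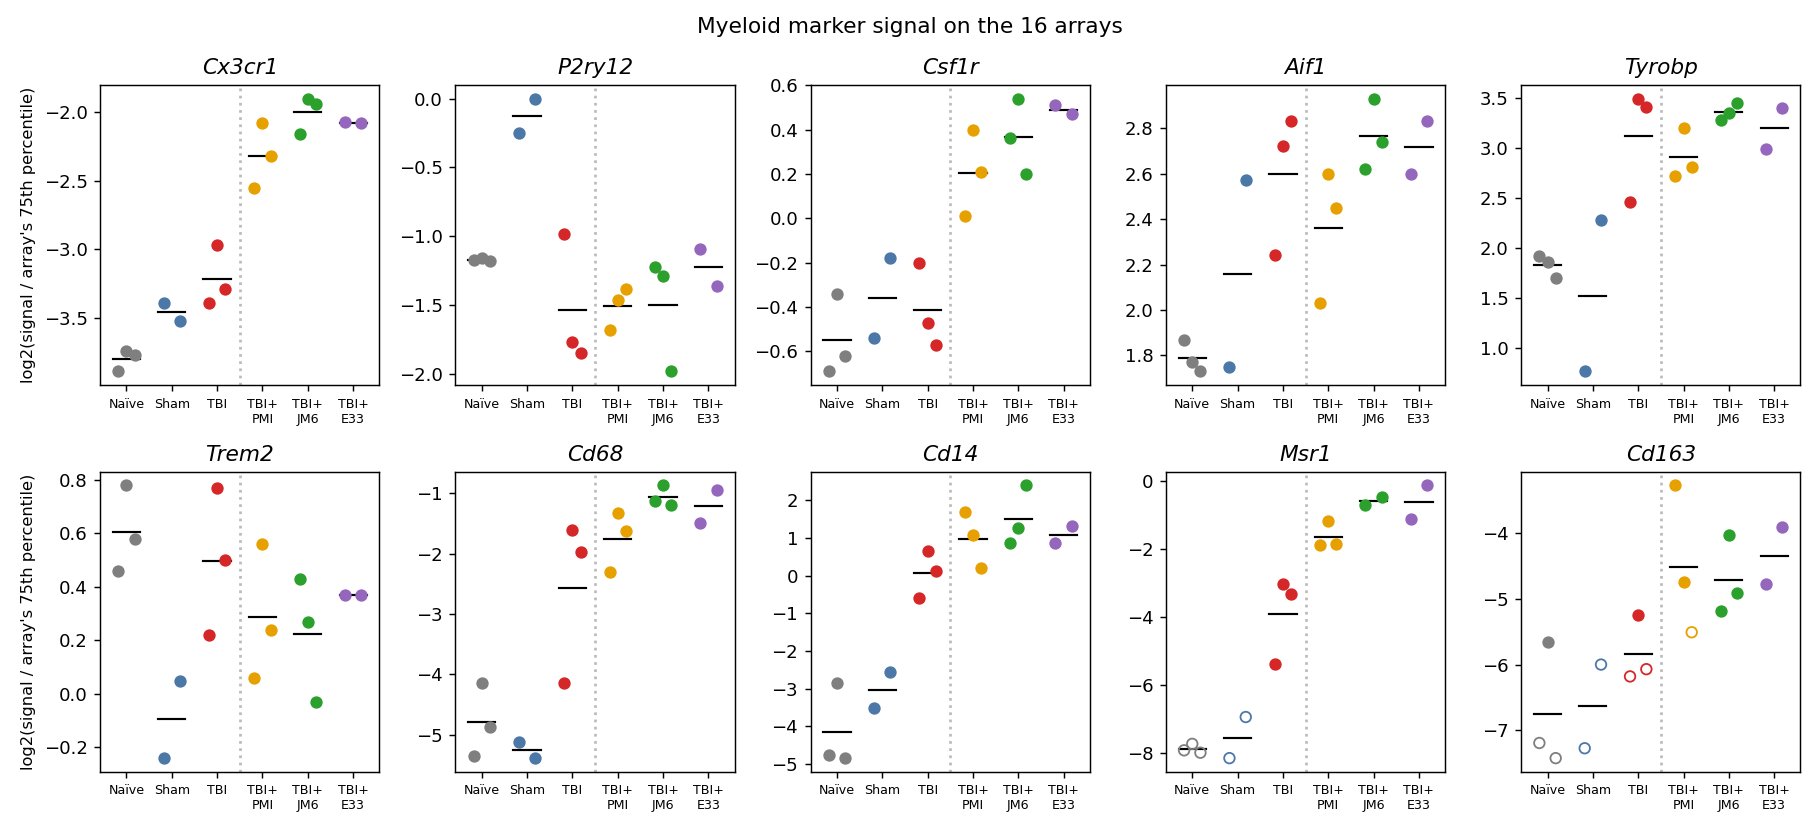
Signal of each marker gene on the 16 arrays, as log2 of the ratio to the array's 75th percentile, by group. Each point is 1 array, open points were not well above background, black lines are group means and the dotted line separates the scanning sessions; Cd14, Msr1 and Cd68 stand higher on the TBI arrays than on the Naïve and Sham arrays, and P2ry12 is highest in Sham.

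Among the homeostatic genes, P2ry12 gave the clearest difference. It encodes the receptor for ADP that steers microglial processes toward damaged cells. Its log2 signal was -1.17, -1.16 and -1.18 on the Naïve arrays, -0.25 and 0.00 in Sham, and -0.98, -1.77 and -1.85 in TBI. Sham stood above every other array of its session, and the TBI arrays lay on both sides of Naïve. P2ry12 was 2.65-fold lower in TBI than in Sham (log2 difference -1.41, SE 0.28, limma adjusted p = 0.013). It did not differ detectably between TBI and Naïve (log2 difference -0.36, 95% interval -0.90 to 0.17, adjusted p = 0.448) and was 2.07-fold higher in Sham than in Naïve (log2 difference 1.05, SE 0.28, adjusted p = 0.0373). The low value in TBI was thus relative to Sham, and the same Sham arrays enter both called differences. Beside it, 3 of 8 neuronal and 3 of 8 oligodendrocyte genes were called lower in TBI than in Sham (6.46% of all probes were). In each list 1 of 8 was called higher in Sham than in Naïve (8.07% of all probes were called in either direction). No gene of either list was called between TBI and Naïve (4.71% of all probes were). The part of these cells in the result was not tested.

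Cx3cr1, the receptor for the neuronal chemokine fractalkine, was not called in any comparison within its session. It read -3.89, -3.74 and -3.77 in Naïve, -3.39 and -3.52 in Sham, and -3.39, -2.97 and -3.29 in TBI. The TBI arrays were all above Naïve and overlapped Sham. The log2 difference was 0.58 against Naïve (95% interval 0.23 to 0.93, adjusted p = 0.0593) and 0.24 against Sham (interval -0.16 to 0.63, adjusted p = 0.439).

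Csf1r, the receptor for the growth factors that microglia need to survive, was likewise not called. The brighter probe read -0.69, -0.34 and -0.62 in Naïve, -0.54 and -0.18 in Sham, and -0.20, -0.47 and -0.57 in TBI, with all 3 groups overlapping. Its log2 difference was -0.05 between TBI and Sham (95% interval -0.48 to 0.37) and 0.14 between TBI and Naïve (interval -0.24 to 0.51). The sign against Sham turned under other scalings, with 0.21 when scaled to E1A control spots.

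The second probe of Csf1r, the second of the printed pair, followed another course. It read -4.01, -3.40 and -3.84 in Naïve, -2.76 and -2.12 in Sham, and -2.56, -4.20 and -3.97 in TBI. Sham was above Naïve on all arrays, and TBI 1 lay with Sham while TBI 2 and TBI 3 lay with Naïve. Neither difference was called, with log2 values of 1.31 for Sham vs. Naïve (SE 0.40, adjusted p = 0.0665) and -1.14 for TBI vs. Sham (SE 0.40, adjusted p = 0.0942).

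Aif1, Tyrobp and Trem2 are expressed by microglia and macrophages in most states. Aif1 encodes the actin-binding protein IBA1 used to stain microglia. Its brighter probe read 1.87, 1.77 and 1.73 in Naïve, 1.75 and 2.57 in Sham, and 2.24, 2.72 and 2.83 in TBI. TBI stood above Naïve on all arrays but overlapped Sham, whose arrays lay far apart. The difference was not called against Sham (log2 0.43, 95% interval -0.13 to 1, adjusted p = 0.319) or Naïve (log2 0.81, interval 0.30 to 1.31, adjusted p = 0.069).

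The second Aif1 probe read 0.56, 0.55 and 0.38 in Naïve, 0.22 and 0.41 in Sham, and 1.2, 1.69 and 1.17 in TBI. Here every TBI array lay above every Sham and Naïve array. This probe was called higher in TBI against Sham, 2.05-fold (log2 1.04, SE 0.20, adjusted p = 0.0115), and against Naïve, 1.81-fold (log2 0.86, SE 0.18, adjusted p = 0.019). For Aif1 the call therefore depended on the probe, and the choice of the brighter one left it uncalled.

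Tyrobp encodes the adaptor DAP12, which carries the signal of TREM2 and related receptors into the cell. It read 1.92, 1.86 and 1.70 in Naïve, 0.77 and 2.28 in Sham, and 2.46, 3.49 and 3.41 in TBI. All TBI arrays were above all others of the session, although TBI 1 was only slightly above Sham 2. Tyrobp was 3.02-fold higher in TBI than in Sham (log2 1.59, SE 0.39, adjusted p = 0.0264). Against Naïve the log2 difference was 1.29 (SE 0.35) and missed the threshold (adjusted p = 0.053). After quantile normalization, which gives each array the same distribution, it was 1.15 and called (limma adjusted p = 0.0465).

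Trem2, the lipid-sensing receptor that pairs with that adaptor, did not follow Tyrobp. It read 0.46, 0.78 and 0.58 in Naïve, -0.24 and 0.05 in Sham, and 0.22, 0.77 and 0.50 in TBI. Sham was lowest and clear of both other groups, while TBI overlapped Naïve. No difference was called, the log2 values being 0.59 for TBI vs. Sham (95% interval 0.12 to 1.06, adjusted p = 0.105), -0.11 for TBI vs. Naïve (interval -0.53 to 0.31) and -0.70 for Sham vs. Naïve (interval -1.17 to -0.23, adjusted p = 0.0676).

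Msr1, Cd14 and Cd68 had the largest log2 differences between TBI and either control group among the 10 genes, while the difference of Cd163 was not called. Cd68 encodes a lysosomal membrane glycoprotein of phagocytes. It read -5.35, -4.15 and -4.88 in Naïve, -5.12 and -5.39 in Sham, and -4.14, -1.61 and -1.97 in TBI. TBI 1 barely exceeded the highest Naïve array, while TBI 2 and TBI 3 were far above. Cd68 was 6.43-fold higher in TBI than in Sham (log2 2.68, SE 0.60, adjusted p = 0.0196). It was 4.67-fold higher than in Naïve (log2 2.22, SE 0.53, adjusted p = 0.0351). After quantile normalization the log2 difference from Naïve was 1.86 and not called (limma adjusted p = 0.0524).

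Cd14 encodes the co-receptor that presents lipopolysaccharide to Toll-like receptors. It read -4.75, -2.86 and -4.84 in Naïve, -3.50 and -2.56 in Sham, and -0.60, 0.65 and 0.13 in TBI. The 3 TBI arrays were clear of all 5 control arrays. Cd14 was 8.53-fold higher in TBI than in Sham (log2 3.09, SE 0.65, adjusted p = 0.0155) and 18.5-fold higher than in Naïve (log2 4.21, SE 0.58, adjusted p = 0.00426).

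Msr1 encodes the class A scavenger receptor of macrophages. Its probe was well above background on none of the 3 Naïve and none of the 2 Sham arrays, and on all 3 TBI arrays. It read -7.92, -7.73 and -7.99 in Naïve, -8.15 and -6.94 in Sham, and -5.39, -3.02 and -3.31 in TBI. Because the controls gave only a bound, the dim group was set to the higher, on each array, of the probe's own signal and the lowest signal well above background. On that basis Msr1 was at least 5.32-fold higher in TBI than in Sham (adjusted p of the fit 0.00829) and at least 4.41-fold higher than in Naïve (adjusted p = 0.00449).

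Cd163, the hemoglobin scavenger receptor typical of perivascular macrophages, was near background. It was well above background on 1 of 3 Naïve, 0 of 2 Sham and 1 of 3 TBI arrays. It read -7.19, -5.66 and -7.42 in Naïve, -7.27 and -6 in Sham, and -6.18, -5.25 and -6.07 in TBI, with the groups overlapping. The difference was not called against Sham (log2 0.80, 95% interval -0.67 to 2.27) or Naïve (log2 0.92, interval -0.39 to 2.24), and these intervals reach differences of several-fold.

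**Figure D2:**
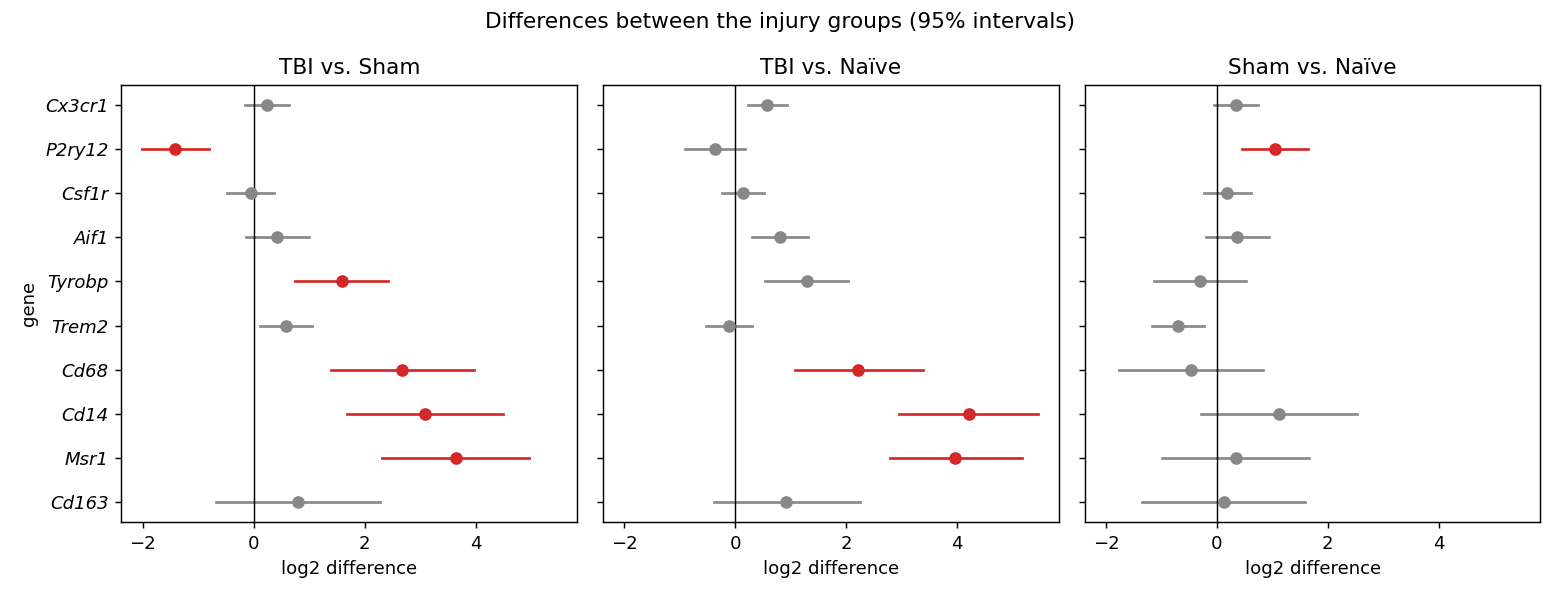
Log2 differences between TBI, Sham and Naïve for the 10 marker genes, with 95% intervals from the limma fit over 16 arrays. Red marks genes called at adjusted p under 0.05; Cd68, Cd14 and Msr1 are red in both TBI panels, P2ry12 is red on the left of 0 in TBI vs. Sham and on the right in Sham vs. Naïve, and Msr1 is drawn at its fitted value although its controls were at background.

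By role, 3 of the 4 activated genes, 1 of the 3 general genes and none of the 3 homeostatic genes were called higher against Sham. The median log2 difference was 2.89 for the activated genes, 0.59 for the general genes and -0.05 for the homeostatic genes, when the median of all tested probes was -0.03. Against Naïve the medians were 3.1, 0.81 and 0.14, with 0.04 for all probes. The arrays of TBI and Sham did not overlap for 6 of the 10 genes, when they did not overlap for 41.5% of all probes. For TBI and Naïve they did not overlap for 6 of 10, against 22.9% of all probes.

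Between Sham and Naïve, 1 of the 10 genes, P2ry12, was called, a share near the 8.07% of all probes. The other 9 had log2 differences between -0.70 and 1.12, with 95% intervals that reached 2.52 for Cd14, and so are not shown to be alike in the groups. Their groups did not overlap for 3 of the 10 genes, against 39.0% of all probes. The P2ry12 call was lost without any single Naïve or Sham array.

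Calls among the 10 genes rested on TBI 2 and TBI 3 more than on TBI 1. The share of all probes called in the fits without single arrays is not given. A change in these counts is therefore not shown to be particular to the marker genes. Without TBI 1, 6 of the 10 genes were called against Sham and 6 against Naïve. Without TBI 2 these were 2 and 2, and without TBI 3 they were 1 and 2. Without Sham 1 no gene was called against Sham, and without Sham 2 there were 3. For single genes the log2 difference from Sham moved widely in some of these fits. Tyrobp was 0.84 without Sham 1 (adjusted p = 0.217) and 2.35 without Sham 2, and it was also not called without TBI 2 or TBI 3. Cd68 was 3.47 without TBI 1, and its call was lost without any of the other 4 arrays, at values from 2.2 to 2.82. Cd14 ran from 2.63 to 3.56 and lost its call without Sham 1, TBI 2 or TBI 3. Against Naïve, Cd68 was 3.01 without TBI 1 and lost its call without Naïve 1, Naïve 3, TBI 2 or TBI 3, while Cd14 and Msr1 were called whichever array was left out.

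P2ry12 ran from -1.68 to -1.25 against Sham and lost its call without Sham 1, Sham 2 or TBI 3. Msr1 lost its call against Sham without Sham 1 alone. Against Sham no gene was called either with TBI and Sham fitted alone, with the slide as a fixed block or with normexp background correction. The share of all probes called in those fits is not given, so the absence of calls is not shown to be particular to these genes. With the slide as a fixed block the log2 difference from Sham was 4.13 for Cd14 (adjusted p = 0.514) and 2.81 for Cd68 (adjusted p = 0.799). On the slide that held Naïve 3 and the TBI arrays, the mean TBI value exceeded Naïve 3 by 4.90 for Cd14, 2.31 for Cd68 and 4.08 for Msr1 on the log2 scale.

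A contrast taken within each array cancels the single factor by which that array was scaled, although not a normalization that acts differently on dim and bright probes, such as quantile normalization. The mean log2 signal of Cd68 and Cd14 minus that of Cx3cr1, P2ry12 and Csf1r was set to 0 at the Naïve mean, leaving out Msr1 and Cd163 because of their background arrays. It was -0.50, 0.87 and -0.37 in Naïve, -0.29 and -0.11 in Sham, and 1.78, 3.89 and 3.61 in TBI. TBI stood above all control arrays, with means of 3.1 ± 1.14 (SD, n = 3) in TBI, 0.00 ± 0.76 (n = 3) in Naïve and -0.20 ± 0.12 (n = 2) in Sham.

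In the drug groups the same contrast was 3.72, 3.56 and 3.07 for TBI+PMI, 3.51, 3.72 and 4.47 for TBI+JM6, and 3.21 and 3.80 for TBI+E33. All 8 arrays lay far above Naïve and Sham and overlapped TBI 2 and TBI 3. The means were 3.45 ± 0.34 (SD, n = 3), 3.90 ± 0.50 (n = 3) and 3.50 ± 0.42 (n = 2). This contrast cancels an array's overall brightness but not any effect of the session on single probes.

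**Figure D3:**
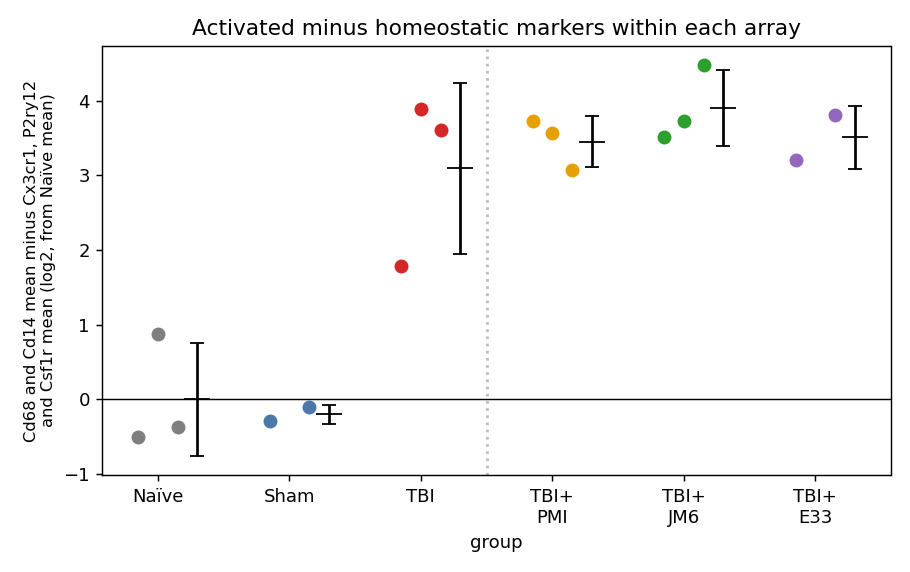
Mean log2 signal of Cd68 and Cd14 minus the mean of Cx3cr1, P2ry12 and Csf1r on each array, as the difference from the Naïve mean, by group. Points are arrays, the offset black marks are means with SD and the dotted line separates the scanning sessions; TBI 1 at 1.78 lies between the controls and the other injured arrays, which reach from 3.07 to 4.47.

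Whether the drugs differed among themselves was asked within their own session. None of the 10 genes was called in any of the 3 pairs. Over all probes 0.0131% were called for TBI+JM6 vs. TBI+PMI, 0.0175% for TBI+JM6 vs. TBI+E33 and 0.11% for TBI+PMI vs. TBI+E33. At an unadjusted p under 0.05 by the same limma fit the number of genes was 0 in each pair. Doses are not compared.

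The widest 95% intervals over the 10 genes ran from -1.52 to 2.37 for TBI+JM6 vs. TBI+PMI, from -1.84 to 1.83 for TBI+JM6 vs. TBI+E33 and from -2.34 to 1.30 for TBI+PMI vs. TBI+E33. These ends belonged to Msr1, Cd14 and Cd163, in which differences of several-fold were not detectable. For Cx3cr1 the log2 difference between TBI+JM6 and TBI+PMI was 0.31 (interval -0.04 to 0.67) and for P2ry12 it was 0.01 (interval -0.52 to 0.55).

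On the drug arrays Cd14 read 1.67, 1.08 and 0.19 with PMI, 0.87, 1.27 and 2.39 with JM6, and 0.87 and 1.30 with E33. Cd68 read -2.30, -1.33 and -1.63 with PMI, -1.13, -0.87 and -1.2 with JM6, and -1.49 and -0.95 with E33. The groups overlapped for Cd14 in every pair, and for Cd68 the JM6 arrays lay above the PMI arrays by a log2 difference that was not called (0.69, 95% interval -0.47 to 1.84). P2ry12 read -1.68, -1.46 and -1.38 with PMI, -1.22, -1.29 and -1.98 with JM6, and -1.09 and -1.36 with E33.

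Msr1 was well above background on all drug arrays on which it was measured. The spot on TBI+JM6 2 was marked as an outlier by the scanner software and left out of the fit, so that TBI+JM6 had 2 values. It read -1.87, -1.16 and -1.85 with PMI, -0.70 and -0.45 with JM6, and -1.11 and -0.12 with E33. Cd163 was well above background on 2 of 3 PMI arrays, 3 of 3 JM6 arrays and 2 of 2 E33 arrays. It read -3.28, -4.75 and -5.51 with PMI, -5.18, -4.04 and -4.92 with JM6, and -4.78 and -3.91 with E33, with all groups overlapping.

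The remaining genes had these signals on the drug arrays. Cx3cr1 read -2.55, -2.08 and -2.32 with PMI, -2.16, -1.90 and -1.94 with JM6, and -2.07 and -2.08 with E33. Csf1r read 0.01, 0.40 and 0.21 with PMI, 0.36, 0.54 and 0.20 with JM6, and 0.51 and 0.47 with E33. Both genes overlapped between TBI+JM6 and each of the other drug groups. Aif1 read 2.03, 2.60 and 2.45 with PMI, 2.62, 2.93 and 2.74 with JM6, and 2.60 and 2.83 with E33. Tyrobp read 2.72, 3.20 and 2.81 with PMI, 3.28, 3.35 and 3.45 with JM6, and 2.99 and 3.40 with E33. For these genes JM6 lay above PMI on every array and overlapped E33, with log2 differences from PMI of 0.40 for Aif1 (95% interval -0.10 to 0.91) and 0.45 for Tyrobp (interval -0.30 to 1.2), neither of them called.

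Set against TBI, the drug groups cross the scanning sessions, and the scaling decided most of the calls. The median log2 difference of all tested probes was 0.79 for TBI+PMI, 0.99 for TBI+JM6 and 1.08 for TBI+E33. The numbers of genes called were 3 of 10 for TBI+PMI (56.7% of all probes), 5 for TBI+JM6 (70.1%) and 3 for TBI+E33 (70.3%), all of them higher. After quantile normalization, which gives each array the same distribution, 1 gene was called for TBI+PMI (19.2% of all probes), 2 for TBI+JM6 (27.2%) and 2 for TBI+E33 (20.4%), among them Trem2, which was lower. The 3 comparisons share the TBI arrays. Session and drug cannot be told apart in any of these values.

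Msr1 was the member that stood above TBI under both scalings with JM6 and E33. Its log2 difference from TBI was 2.28 with PMI (SE 0.54), 3.33 with JM6 (SE 0.61) and 3.29 with E33 (SE 0.61), called in each case. Without TBI 1 these were 1.54, 2.59 and 2.56, all called. After quantile normalization it was 1.39 (SE 0.49, adjusted p = 0.0704), 2.32 (SE 0.55, adjusted p = 0.0117) and 2.26 (SE 0.55, adjusted p = 0.0174). None of the 3 TBI arrays reached the lowest drug array.

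Trem2 was called lower than TBI with every drug after quantile normalization but not under the percentile scaling. The quantile log2 differences were -0.71 with PMI (SE 0.21, adjusted p = 0.0332), -0.92 with JM6 (SE 0.21, adjusted p = 0.00803) and -0.79 with E33 (SE 0.23, adjusted p = 0.0327). Under the percentile scaling they were -0.21, -0.27 and -0.13. The log2 signals were 0.06, 0.56 and 0.24 with PMI, 0.43, 0.27 and -0.03 with JM6, and 0.37 and 0.37 with E33, which overlap those of TBI.

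Cx3cr1 and Csf1r were called higher with every drug under the percentile scaling, by about as much as the median probe. The differences of Cx3cr1 were 0.90, 1.22 and 1.14 for PMI, JM6 and E33, which exceeded the all-probe medians by 0.11, 0.22 and 0.06. Those of Csf1r were 0.62, 0.78 and 0.91, which lay -0.17, -0.21 and -0.17 from the medians. After quantile normalization neither was called by these probes. The second probe of Csf1r read higher, by 2.03, 2.28 and 2.17, and remained called after quantile normalization for PMI (1.19, adjusted p = 0.0261) and JM6 (1.29, adjusted p = 0.0139) but not for E33 (1.11, adjusted p = 0.0501). Aif1 and Tyrobp had differences between -0.23 and 0.25 under the percentile scaling and between -0.61 and -0.17 after quantile normalization, so that the sign turned for JM6 and E33, and were not called under either by the brighter probe. The second Aif1 probe was called for JM6 (0.71) and E33 (0.93) under the percentile scaling, below the all-probe medians, and for no drug after quantile normalization.

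Cd68 and Cd14 were called higher with JM6 alone, by 1.51 (SE 0.53, adjusted p = 0.0236) and 1.45 (SE 0.58, adjusted p = 0.0395), and neither was called after quantile normalization (0.62 and 0.82). Without TBI 1 they were 0.72 and 1.12 and not called. Both also lost the call without TBI+JM6 2, and Cd14 without TBI 3 or TBI+JM6 3. That JM6 differed here from the other drugs is not shown, since neither gene was called in a direct pair. P2ry12 had differences of 0.02, 0.04 and 0.30 under the percentile scaling and of -0.65, -0.82 and -0.58 after quantile normalization, none of them called. Cd163 had 1.32, 1.12 and 1.49 and then -0.26, -0.83 and -0.66, also uncalled, so that its sign turned with the scaling.

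**Figure D4:**
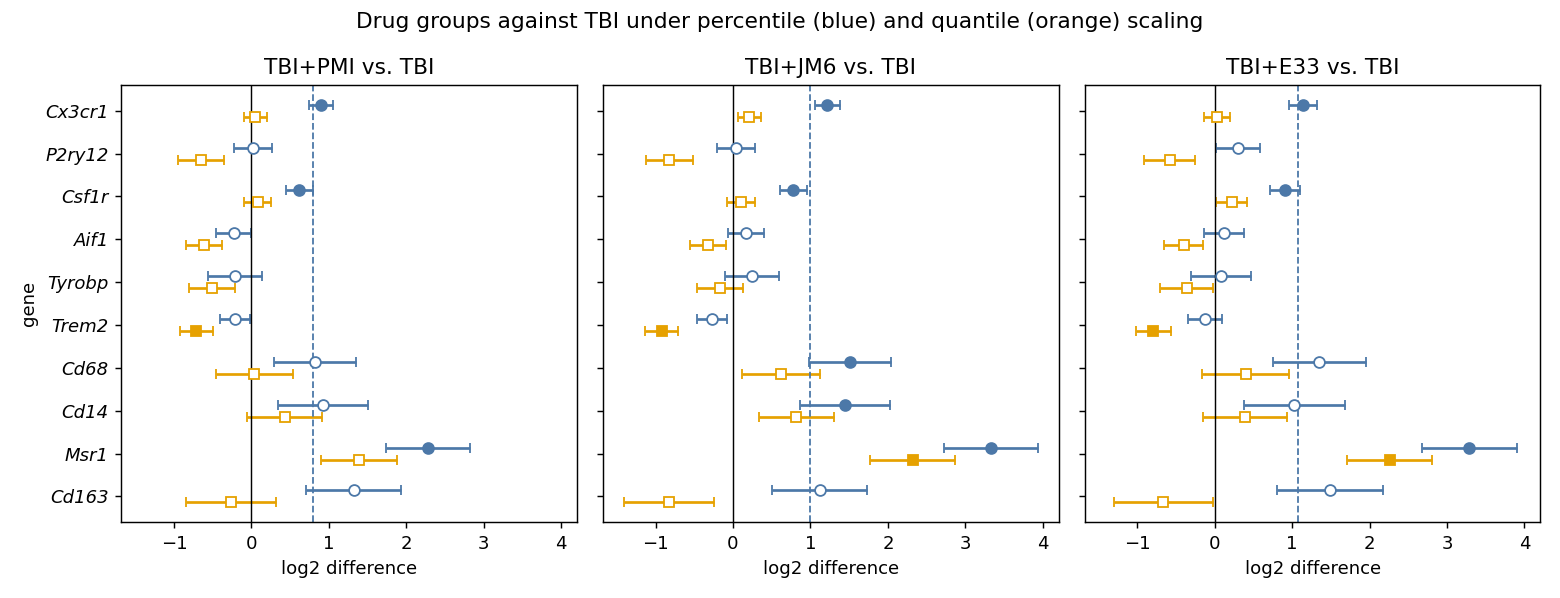
Log2 differences of the drug groups from TBI for the 10 marker genes (brighter probe), with SE bars, under percentile scaling (circles) and quantile normalization (squares). Filled symbols were called and the dashed line is the median of all tested probes under percentile scaling; Msr1 is to the right of both references in each panel, while the homeostatic genes sit at or left of the dashed line apart from Cx3cr1, which exceeds it by 0.06 to 0.22.

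Other genes of the same cells were read from lists of known markers. Of 24 further activated markers, 22 were tested and 8 were called higher against Sham (2.92% of all probes were) and none lower, with a median log2 difference of 1.15. They were Spp1, Lgals3, Hmox1, Gpnmb, Fcgr3a, Fcgr2b, Itgam and Fcer1g. Spp1, which encodes the secreted phosphoprotein osteopontin, was well above background on 1 of 2 Sham arrays and all 3 TBI arrays (adjusted p = 0.0121), and no size is given for its difference. Lgals3, the phagocyte lectin galectin-3, was 13.8-fold higher (log2 3.79, SE 0.88, adjusted p = 0.0227), and Gpnmb, a lysosomal glycoprotein, 5.55-fold higher (log2 2.47, SE 0.57, adjusted p = 0.0216). Against Naïve 11 of the 22 were called higher and none lower (4.71% of all probes were called in either direction), with a median of 0.95. These added Cd36, Cd63, Cd86, Cd9 and Slc11a1 and lacked Itgam and Fcer1g, while Cd9 was also higher in Sham than in Naïve (log2 0.92, adjusted p = 0.0302).

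Itgam, which encodes the CD11b protein that the study stained to follow microglial activation, was among these genes. Its mean log2 signal was -1.31 ± 0.40 (SD, n = 3) in Naïve, -1.83 ± 0.26 (n = 2) in Sham and -0.43 ± 0.32 (n = 3) in TBI. It was 2.65-fold higher in TBI than in Sham (log2 1.40, SE 0.29, adjusted p = 0.0149) and was not called against Naïve (log2 0.88, adjusted p = 0.0738). In the drug groups it was 0.08 ± 0.43 with PMI (n = 3), 0.02 ± 0.09 with JM6 (n = 3) and -0.03 ± 0.29 with E33 (n = 2). The difference of TBI+JM6 from TBI was 0.45 (adjusted p = 0.138), below the all-probe median of 0.99, and -0.26 after quantile normalization. This difference crosses the scanning sessions. By the stain, the paper reports reduced microglial activation with JM6. Staining of a protein in sections and RNA of whole hippocampus are unlike measures, so these values do not test that report.

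Of 14 further homeostatic genes, 13 were tested and 2 were called lower against Sham (6.46% of all probes were), none higher, with a median log2 difference of -0.46. These were Tmem119, a transmembrane protein restricted to microglia within the brain, and Selplg, the P-selectin ligand. Tmem119 had a log2 difference of -2.17 (SE 0.39, adjusted p = 0.0093) and Selplg one of -1.75 (SE 0.30, adjusted p = 0.00829). Neither was called against Naïve, with -1.21 for Tmem119 (adjusted p = 0.0648) and -0.63 for Selplg (adjusted p = 0.206). Selplg was higher in Sham than in Naïve by 1.12 (SE 0.30, adjusted p = 0.0401), as P2ry12 was. Not every gene of the list was lower after injury. The mean log2 signal of Gpr183 was -5.29 in Sham and -4.07 in TBI, and that of Slc2a5 -4.14 and -3.08, neither difference being called.

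Of 19 genes of CSF1R and TREM2 signaling, 15 were tested and 2 were called higher against Sham (2.92% of all probes were), none lower. Among them was the exchange factor Vav1 (adjusted p = 0.0291), which was well above background on 1 of 2 Sham and 2 of 3 TBI arrays, so that no size is given. Il34, Cx3cl1, Spi1 and Syk are named for their roles, after their values were seen. The ligands Csf1 and Il34 had differences of 0.65 (adjusted p = 0.0974) and -0.33 (adjusted p = 0.281), and the fractalkine gene Cx3cl1 one of -0.71 (adjusted p = 0.192). Spi1, which encodes PU.1, had 1.02 (adjusted p = 0.16) and Syk 0.73 (adjusted p = 0.224). Against Naïve 4 of the 15 were called higher (4.71% of all probes were called in either direction), among them Tgfb1, Runx1 and Csf1. Of these Tgfb1 was also higher in Sham (log2 1.26, adjusted p = 0.0134).

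Some markers of cells from the blood were called beside the activated genes. Of 13 genes of neutrophils and monocytes 11 were tested, and 5 were called higher against Sham (2.92% of all probes were), among them S100a8, S100a9, Vcan and Plac8, and none lower. The summed linear signal of the 11, in units of the array's 75th percentile, ran from 1.18 to 1.36 among Naïve arrays, 1.44 to 1.93 among Sham arrays, 2.42 to 8.38 among TBI arrays and 8.75 to 16.2 among drug arrays. Bright probes weigh most in such a sum. The mean log2 signal of Lyz2 was 1.04 in TBI, 2.89 with PMI, 3.21 with JM6 and 3.05 with E33. Of the 11 genes, 4 were well above background on no Naïve array, 3 on no Sham array and 1 on no TBI array. The monocyte receptor Ccr2 was well above background on none of the Naïve or Sham arrays, on 1 of 3 TBI arrays and on all drug arrays. The drug arrays were scanned in the other session, so that session and drug cannot be told apart in these levels. Of 9 lymphocyte genes tested, Cd3d alone was called higher against Sham (2.92% of all probes were). The summed signal of the 9 was 0.0643 to 0.0848 in Naïve, 0.196 to 0.286 in Sham and 0.2 to 0.335 in TBI. Of 5 genes of perivascular and border macrophages none was called against Sham. Against Naïve 1 was called higher (4.71% of all probes were called in either direction). Their sums were 0.182 to 0.532 in Naïve, 0.323 to 0.443 in Sham and 0.33 to 1.13 in TBI.

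Genes of other brain cells were read in the same way. Of 8 neuronal genes 3 were called lower against Sham under the percentile scaling and 0 after quantile normalization. Under the percentile scaling 6.46% of all probes were called lower. The neuronal sums were 23.6 to 26.4 in Naïve, 30.3 to 33.5 in Sham and 16.8 to 24.7 in TBI. Of 8 oligodendrocyte genes 3 were called lower against Sham under either scaling. Their sums were 86.3 to 121 in Naïve, 115 to 121 in Sham and 57.8 to 115 in TBI. Against Naïve no gene of either list was called under the percentile scaling (4.71% of all probes were). After quantile normalization 2 neuronal genes were called lower against Naïve. Of 4 choroid plexus genes none was called in TBI against Sham or Naïve. Their sums lay between 0.185 and 3.52 in TBI, at 4.88 and 121 in Sham, and between 2.34 and 76.5 in Naïve. The part of all these cells in the results on the marker genes was not tested.

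How the markers varied together was described by Pearson's r over the arrays after each session's mean was removed. Msr1 followed Tyrobp (0.93) and Cd68 (0.92) over 15 arrays, and Tyrobp followed Aif1 (0.85) and Cd68 (0.84) over 16. The homeostatic genes differed from each other. P2ry12 ran against Cd68 (-0.67) and Tyrobp (-0.61), while Csf1r was related to none of the activated genes by more than 0.24. Cx3cr1 instead followed Cd68 (0.74), Cd14 (0.72) and Msr1 (0.79, 15 arrays), and had 0.26 with Cd163. Trem2 had 0.47 with its adaptor Tyrobp. These values reflect the same few arrays and group differences, and they share each array's scaling.

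Gene names close in pattern to each marker were taken over the same centred arrays, as those of highest r among the named genes. Picking the highest of so many genes over so few arrays gives high r by itself, and group differences enter r too. For P2ry12 they included Selplg and Faim2 (r = 0.96 and 0.93), and for Tyrobp they were Fcer1g, which encodes a related signaling adaptor, Ripk3 and Il2rg (0.95 to 0.96). Cd68 had the Toll-like receptor gene Tlr2, Anpep and Olr1 (each 0.96), and Cd14 had Tnfrsf1a, Tnfrsf12a and Tagln2 (0.97 to 0.98). Msr1 had the Src-family kinase gene Fgr, Rab32 and Clec4a2 (0.97 to 0.98, 15 arrays), and Aif1 had Lrch4 and Btk (each 0.96). The highest r was lower for Cx3cr1, with Kif20b, Loxl3 and Pax8 (0.91 to 0.93), for Trem2, with Ep300, Ng23 and Alpk2 (0.88 to 0.90), for Cd163, with Srgn, Rtp4 and Fuca1 (0.86 to 0.90), and for Csf1r, with Abcb1b, Prr12 and Alox5 (0.81 to 0.83).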

How the data were processed

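Per the labels, poly(A) RNA was amplified (RiboAmp HS or MessageAMP II, which rat received which not being given), labelled and hybridised to single-colour arrays, and the deposited intensity values come from Agilent Feature Extraction 9.5.3.1, background-subtracted by the authors' scanner software. A second deposited table holds the authors' ratios of each probe to the 75th percentile, on a linear scale with one distribution on all arrays, and served as an alternative. Here processed signals were divided by each array's 75th percentile over probes well above background and converted to log2, spots of a probe were averaged, and outlier-flagged spots were left out (1 among the marker genes). One limma fit (version 3.58.1, R 4.3.3) covered 16 arrays, 6 groups and 22821 probes, with 10 residual degrees of freedom and Benjamini-Hochberg adjustment over all probes. The fit was tested on simulated data. The number of arrays limits the precision. The design text calls the arrays of a group biological replicates.

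The marker genes and the gene lists were chosen with earlier results of these data known. Named genes were all 10 markers, genes of the further microglial and pathway lists called in TBI vs. Sham or TBI vs. Naïve, genes of other cell types whose level stands beside a marker's, and the 3 genes most alike to each marker. Some genes that this rule names are not reported here. Alternatives covered background correction, scaling, filters, GC content, the slide, the replicate number, the methods' t-test (fold limit 1.2), the authors' table and leaving out each array. Replicate numbers did not pair the arrays, since deviations of same-numbered arrays correlated between -0.19 and 0.18 over 36 pairs of arrays.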

Additional observations from a re-analysis of the deposited data

How the results depend on the processing

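Shares of all probes called are not given beside the counts in this section, so a changed count is not shown to be particular to the marker genes. The count of 5 genes called for TBI vs. Sham became 0 with normexp background correction or the methods' t-test after adjustment. It was also 0 with the compared groups alone or the slide as a fixed block, and 3 with the unadjusted t-test. It ranged from 0 to 6 when single arrays were left out. The 3 for TBI vs. Naïve became 0 with the adjusted t-test, the groups alone or the fixed slide block, 1 with normexp, 5 with the percentile over all probes, with probes above background on all 16 arrays or with the unadjusted t-test, and 6 with the slide as a random block, and ranged from 2 to 6 without single arrays. The replicate block gave 5 for TBI vs. Naïve and 0 for Sham vs. Naïve and changed no other count by over 1.5 times. The 1 gene for Sham vs. Naïve became 0 with normexp, quantile normalization, E1A control spots, no filter, the authors' table, the adjusted t-test, the groups alone or the fixed block, 2 with probes above background on all arrays and 3 with the unadjusted t-test, and 0 whichever array was left out. The unadjusted t-test called 2 genes for TBI+JM6 vs. TBI+PMI, and the drug pairs had 0 whichever array was left out. Against TBI, TBI+PMI fell from 3 to 0 with normexp and to 1 with quantile normalization, E1A or the authors' table (3 to 4 without single arrays). TBI+JM6 fell from 5 to 2 with quantile normalization, the authors' table or the adjusted t-test, to 1 with E1A and to 3 with the unadjusted t-test (3 to 5 without single arrays). TBI+E33 went from 3 to 1 with E1A and to 5 with the GC trend removed or the slide as a random block (3 to 5 without single arrays).

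Uncalled differences near 0 changed sign. So did some differences of Cx3cr1 and Csf1r between drug groups and TBI that had been called. Csf1r, TBI vs. Sham, became 0.01 (quantile), 0.02 (percentile over all probes), 0.21 (E1A), 0.02 (GC), 0.06 (authors' table) and 0.05 (fixed slide block), and ran from -0.23 to 0.12 without single arrays. Trem2, TBI vs. Naïve, became 0.20 with E1A (-0.25 to 0.03 without single arrays). For Sham vs. Naïve, Csf1r became -0.02 (GC), Msr1 -0.04 (normexp), and Cd163 -0.23 (normexp), -0.09 (GC), -0.04 (authors' table), -0.21 (fixed slide block) and -0.14 (replicate block). Without single arrays, Sham vs. Naïve ran from -0.04 to 0.78 for Aif1, -1.06 to 0.45 for Tyrobp, -0.27 to 0.94 for Msr1 and -0.51 to 0.76 for Cd163. Against TBI with the GC trend removed, Cx3cr1 became -0.01 (PMI) and -0.08 (E33), and Csf1r -0.25 (PMI), -0.32 (JM6) and -0.28 (E33). With the percentile over all probes Csf1r became -0.03 (PMI) and -0.01 (JM6). The cause was not tested. Called differences of TBI from Sham kept their direction in all alternatives. Apart from leaving out arrays, their values ranged as follows, P2ry12 ranging from -1.41 to -1.11, Cd14 from 2.45 to 4.13, Cd68 from 1.81 to 2.95, Tyrobp from 1.52 to 1.85 and Msr1 from 1.61 to 3.90. Of the marker results under the alternatives, 604 stayed on their side of the threshold, 120 lost and 23 gained a call and 30 changed sign. Probes not well above background, Msr1 in controls and Cd163, limit what can be read at low signal.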
